A study of Mus musculus with 3 samples.

Results

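The genes described here encode the subunits of the receptors for glutamate, GABA and glycine. They were chosen by symbol: every gene named as a GABAA (Gabra to Gabrr), AMPA (Gria), kainate (Grik), NMDA (Grin), delta (Grid) or metabotropic glutamate (Grm) receptor gene, or as a glycine receptor gene (Glra, Glrb). The rule found 35 of the 16181 genes listed, with no measured value used. They comprise 9 GABAA, 3 glycine, 4 AMPA, 5 kainate, 5 NMDA, 2 delta and 6 metabotropic glutamate receptor genes, and 1 gene that encodes no subunit and is matched only by the start of its symbol. Single-cell RNA was measured by Drop-seq in cerebella of 3 EedcKO mice at postnatal day 7, with 1 mouse per library and no treatment. All 3 mice are Math1-Cre/Eed fl/fl: both alleles of Eed are floxed. Eed is a core gene of the Polycomb repressive complex PRC2. Cre is driven by the Math1 (Atoh1) promoter, so the deletion is aimed at cerebellar granule neuron progenitors (CGNPs) and the granule neurons (CGNs) that they form, while interneurons, glia and vessels keep Eed by design. With a single genotype, the values compare cell types within these mice and say nothing of the effect of the deletion.

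Fast excitatory transmission runs through ionotropic glutamate receptors, which are tetramers of AMPA, kainate or NMDA subunits, and fast inhibition runs through pentameric chloride channels built from GABAA or glycine receptor subunits. Which subunits a cell makes sets the properties of the channel: AMPA receptors that contain GluA2, the product of Gria2, pass little calcium, whereas those without it are calcium-permeable. In the cerebellum the Bergmann glia, specialised astrocytes that sheath Purkinje cells, are known for AMPA receptors without GluA2, and immature granule neurons for NMDA receptors with GluN2B, the product of Grin2b. Metabotropic glutamate receptors signal through G proteins, and delta receptors bind cerebellins secreted by granule neurons.

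After filtering, 2373 cells were left, 918, 547 and 908 in mice 1, 2 and 3. They held 1003741, 540816 and 1536645 UMIs, each standing for 1 captured RNA molecule, with medians of 919.5, 857 and 1408 per cell. No cell barcode was shared between libraries. Cells were clustered without the receptor genes and without the 70 related pathway genes described beside them, so that none of these defined a cell group. Clusters were named from marker genes and are called "like" cells: 662 proliferating CGNP-like cells, 539 differentiating CGNP/CGN-like cells, 187 interneuron progenitor-like cells (led by Tfap2c, Ptf1a and Neurog1), 348 interneuron-like cells (led by Pax2, Gad1 and Slc32a1), 109 astrocyte-like cells (Aqp4, Gfap and Fabp7), 119 oligodendrocyte-like cells (Mbp, Olig1 and Cnp), 76 myoid-like cells (Myl1, Actc1 and Myog) and 177 non-neural cells of vessels and the myeloid lineage. The remaining 156 cells formed a cluster led by Syt4, Snhg11, Pcp4 and Calb1, with 6 Purkinje markers but also 5 markers of differentiating granule neurons and Neurod1, a granule lineage factor, at 1931 CPM, the UMIs per 1000000 UMIs of a cell group. Only 36 of these cells held a UMI of Calb1, Pcp2, Car8 or Ppp1r17, so it is called the Purkinje-marker cluster and not a cell type. Its cells came unevenly from the mice, 36, 9 and 111 of them. Eed itself averaged 29.5 ± 14.4 CPM in proliferating and 11.1 ± 4.15 in differentiating CGNP/CGN-like cells, and between 43.0 and 73.6 in the other neural groups (SD, n = 3), with 20.5 ± 18.7 in myoid-like cells. Which part of Eed the floxed allele removes was not given in the sources used here, so these 3′ tags do not check the deletion.

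The receptor genes held 3081 UMIs in the filtered cells. Of the 35, 24 had at least 20 UMIs, and Gria2 alone held 887. For each mouse and cell group, a level in CPM is a gene's UMI total scaled to the group's whole UMI total. Each UMI is counted at the 3′ end of a transcript, so this scale is already per molecule and is not divided by length. Where a group held no UMI of a gene, the limit given is 3 UMIs over the group in all mice. P-values measure the spread between the 3 mice, and intervals and limits cover counting error only. Statements that the mice of the groups do not overlap describe single genes. The share of all tested genes without overlap was not counted.

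The 35 genes are scattered over the genome with a few close groups (GRCm38, GENCODE M21). Gabrg1, Gabra2, Gabra4 and Gabrb1 lie together on chromosome 5 between positions 70751047 and 72149037. Gabra4 and Gabrb1 stand head to head, with their annotated 5′ ends overlapping by 196 bases. Gria2 and Glrb are neighbours on chromosome 3, separated by 40763 bases. For 4 of the 35 genes, Grin2d and Grm2 among them, an annotated gene on the other strand covers the 3′ end. How the counting treated strand is not given in the sources used here, so reads of such partners cannot be told apart. RefSeq promoter windows (GRCm38.p6) were held for 21 of the 35 genes, with 27 starts. Gria1, Gria3, Grik1, Grin2b, Grin3a, Grm4, Grm5, Glra1 and Grid1 were among the others. The 250 bases before each start had a median GC content of 62.4%, against 52.4% over all 32851 starts, and a median of 10 CpG dinucleotides against 6. The upstream windows of 3 genes that separate the cell groups below follow, each 250 bases and read 5′ to 3′ on the gene's strand, with CpG dinucleotides in capitals. They are shown as background to the levels below, since PRC2 is known to bind at CpG-rich promoters, and they overlap no annotated exon. Gria2 (chr3:80802836-80803085, minus strand) had 19 CpGs, Gria4 (chr9:4796235-4796484, minus strand) had 16 and Grm3 (chr5:9725353-9725602, minus strand) had 8.
Gria2: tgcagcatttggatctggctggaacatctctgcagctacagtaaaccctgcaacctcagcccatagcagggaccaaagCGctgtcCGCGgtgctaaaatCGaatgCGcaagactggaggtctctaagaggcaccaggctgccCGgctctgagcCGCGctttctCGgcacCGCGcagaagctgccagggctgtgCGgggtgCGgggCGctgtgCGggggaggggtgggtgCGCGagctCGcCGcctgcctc
Gria4: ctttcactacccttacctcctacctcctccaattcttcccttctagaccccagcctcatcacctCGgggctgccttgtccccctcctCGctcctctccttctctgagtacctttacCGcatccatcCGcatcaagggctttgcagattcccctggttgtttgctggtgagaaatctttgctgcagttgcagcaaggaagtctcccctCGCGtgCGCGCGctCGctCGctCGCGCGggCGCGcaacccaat
Grm3: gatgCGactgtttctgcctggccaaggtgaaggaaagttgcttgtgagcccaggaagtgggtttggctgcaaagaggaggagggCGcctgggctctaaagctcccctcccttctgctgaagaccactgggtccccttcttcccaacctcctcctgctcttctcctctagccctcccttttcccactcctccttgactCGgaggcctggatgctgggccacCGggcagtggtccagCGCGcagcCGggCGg
The canonical neuronal E-box CAGCTG, searched on both strands, was in 13.0% of all starts and in none of the 27 of the receptor genes. The GC box GGGCGG, also on both strands, was in 32.7% of all starts and in 15 of the 27, including that of Grm3. These matches describe letters in the windows and nothing more.

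The highest mean levels of the receptor genes fell in 5 of the 9 cell groups. The map of mean levels shows 20 of the 24 genes with at least 20 UMIs. Counted over all 35, the highest mean level was in the Purkinje-marker cluster for 16 genes, in oligodendrocyte-like cells for 9, in astrocyte-like cells for 6, in interneuron-like cells for 3 and in differentiating CGNP/CGN-like cells for 1. For most genes the leading group overlapped the next in its range over mice. The exceptions were Gria1 and Grm3, which led in astrocyte-like cells, and Grin1 and Grin2b, which led in the Purkinje-marker cluster. The sums of all 4 AMPA subunits were 1136 ± 273 CPM in the Purkinje-marker cluster, 1075 ± 174 in astrocyte-like and 1006 ± 116 in oligodendrocyte-like cells, above 682 ± 147 in interneuron-like and 524 ± 81.9 in differentiating CGNP/CGN-like cells (SD, n = 3). In all 3 mice the sums of both glial groups lay above those of interneuron-like and differentiating cells, and the 3 highest groups overlapped. Non-neural cells held 103 ± 26.7 and myoid-like cells 56.0 ± 16.7.

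**Figure D1:**
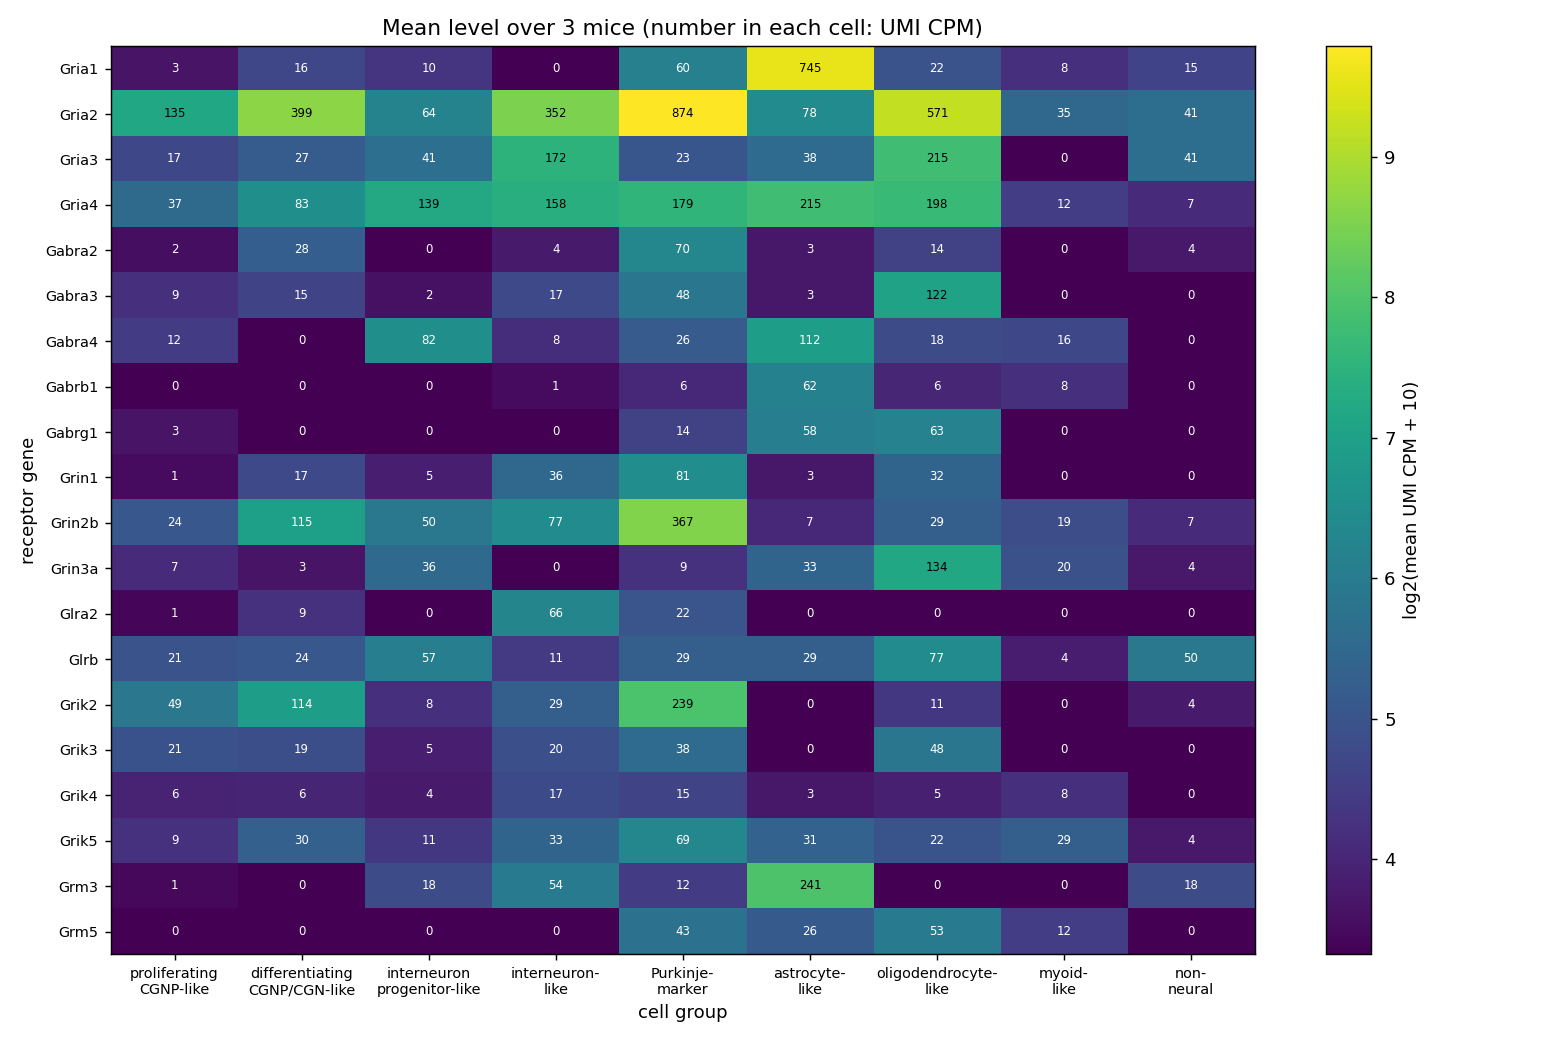
Mean level over 3 mice, in CPM, of 20 receptor genes with at least 20 UMIs (rows) in 9 cell groups (columns), with the colour on a log2 scale after adding 10. Gria1 and Grm3 stand out in astrocyte-like cells, Gria2 in the Purkinje-marker cluster and oligodendrocyte-like cells, and Grin2b and Grik2 in the Purkinje-marker cluster and, at lower levels, in differentiating CGNP/CGN-like cells.

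AMPA subunit use is given as the share of the 4 AMPA genes' UMIs, as a description with no test. In differentiating CGNP/CGN-like cells Gria2 made up 75.2%, 79.7% and 73.3% of AMPA subunit UMIs in mice 1, 2 and 3, and in proliferating CGNP-like cells 70.6%, 66.0% and 77.1%. In interneuron-like cells its share was 43.3%, 50.0% and 59.8%, with Gria3 at 28.3%, 18.2% and 27.2% and no UMI of Gria1 among 266 AMPA subunit UMIs (exact binomial upper limit 1.38%). In interneuron progenitor-like cells Gria4 held 28 of 55 UMIs (50.9%, exact binomial 95% interval 37.1 to 64.6%). It held 64.3%, 57.1% and 44.1% in mice 1, 2 and 3, against 14.3%, 14.3% and 50.0% for Gria2, so that Gria2 held more in mouse 3. In oligodendrocyte-like cells Gria2 held 50.8%, 57.7% and 62.5%, and Gria3 (34 UMIs) and Gria4 (30) most of the rest. Astrocyte-like cells reversed the order: Gria1 held 71.1%, 76.2% and 57.6%, and Gria2 8.89%, 0% and 15.2%. The plot of subunit use shows these shares for each mouse. The shares of Gria1 in astrocyte-like cells lay above those of every other group in all 3 mice. As a share of cells, 35.6% ± 8.85 of astrocyte-like cells held a Gria1 UMI and 8.49% ± 7.47 a Gria2 UMI, against 1.82% ± 0.58 and 4.63% ± 0.70 of non-neural cells, at median depths of 1047 and 1035 UMIs per cell (SD over mice). After thinning to 500 UMIs per cell, these shares were 20.3% and 6.37% of astrocyte-like and 1.24% and 3.06% of non-neural cells.

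**Figure D2:**
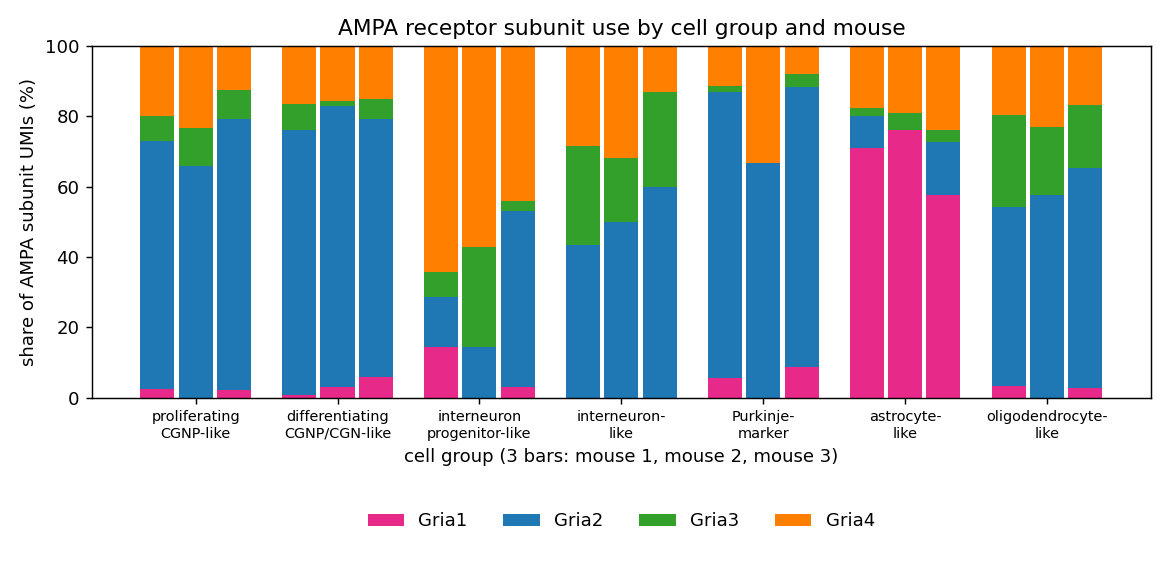
Share of AMPA subunit UMIs (y axis, percent) held by Gria1, Gria2, Gria3 and Gria4 in each mouse, for the 7 neural cell groups (3 bars each, mice 1 to 3). Gria2 holds at least 66.0% in every mouse in the granule lineage and the Purkinje-marker cluster, whereas Gria1 holds between 57.6% and 76.2% in astrocyte-like cells.

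**Figure D3:**
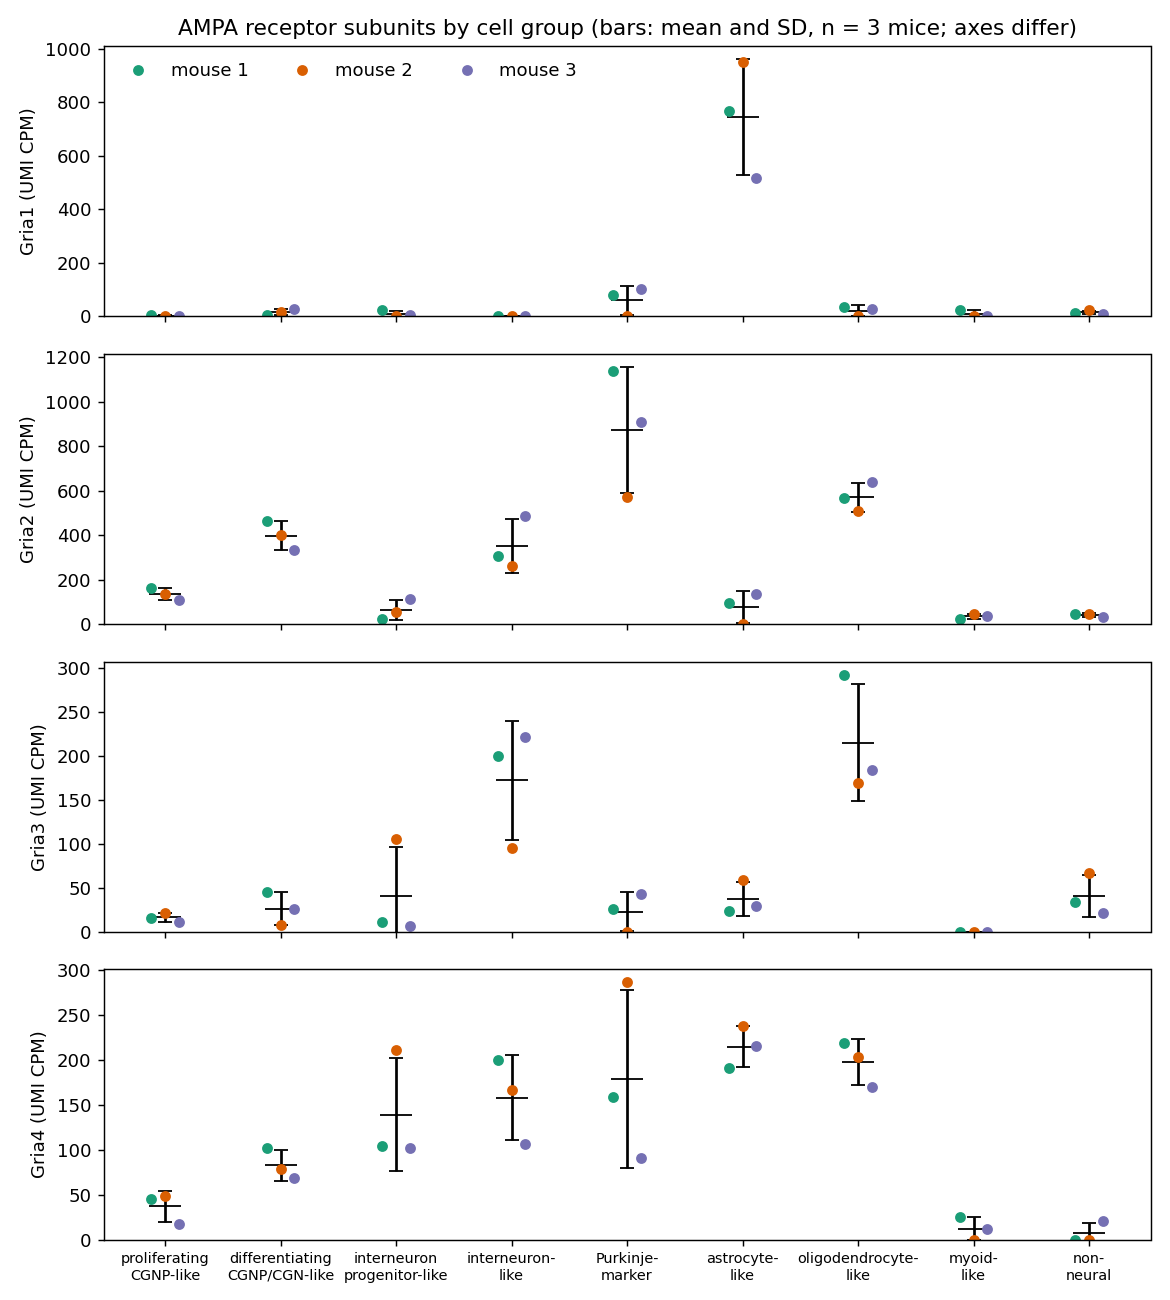
Levels of the 4 AMPA subunit genes (y axes, CPM, each on its own scale from 0) in 9 cell groups, with a point per mouse and the mean and SD over 3 mice as bars. Gria1 lies between 518 and 951 in astrocyte-like cells and at or below 101 elsewhere, and Gria3 is highest in interneuron-like and oligodendrocyte-like cells.

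The first comparison asked how receptor subunits changed as granule neurons differentiate. Differentiating CGNP/CGN-like cells held more of all 6 receptor genes that passed the filter on low counts than proliferating CGNP-like cells did, and 4 of them are described here: Gria2 and Gria4 (AMPA), Grin2b (NMDA) and Grik2 (kainate). Over all 5031 genes tested, 28.8% were called by edgeR's quasi-likelihood test with Benjamini-Hochberg adjustment at a threshold of 0.05, 14.8% higher and 14.0% lower. The other 29 receptor genes were too low to be tested, and a gene that is high in either group passes the filter more easily. The median log2 fold change was 1.39 over these 6 and -0.01 over all genes tested. With no filter it was 0.90 over 30 receptor genes and -0.13 over all genes, and with DESeq2 0.90 over 11 and -0.09. Gria2, the subunit that limits calcium entry, was at 160.7, 135.8 and 108 CPM in proliferating and 462, 400.3 and 334 in differentiating cells. Its log2 fold change was 1.56 (SE 0.23, edgeR adjusted p = 3.92e-05). Grin2b, the GluN2 subunit of immature neurons, went from 29.5, 13.1 and 29.3 CPM to 107, 94.2 and 144, a log2 fold change of 2.22 (SE 0.37, edgeR adjusted p = 0.000145). In differentiating cells Grin2b held 71 of 74 GluN2 UMIs (95.9%), the others being Grin2d. For Gria2 and Grin2b the mice of the cell groups did not overlap.

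Grik2, the kainate subunit GluK2, was at 48.2, 39.4 and 58.5 CPM in proliferating and 152, 109.9 and 79.7 in differentiating cells, a log2 fold change of 1.18 (SE 0.33, edgeR adjusted p = 0.0119). Gria4 went from 45.5, 48.2 and 17.6 CPM to 102, 78.5 and 68.3 (1.18, SE 0.39, edgeR adjusted p = 0.0303). Grik2 and Gria4 also showed no overlap between the cell groups, in 3 of 3 mice. These calls were less firm: Gria4 was lost whichever of the mice was left out (adjusted p of at least 0.0736), and Grik2 without mouse 1 or mouse 2 (0.189 and 0.0867). DESeq2 called Gria2 and Grin2b and not the other 4. Among the alpha subunits, Gabra2 had 2 UMIs in proliferating and 19 in differentiating cells, whereas Gabra4 had 12 and 0. Neither passed the filter on low counts, and with no filter both were called, Gabra2 higher (adjusted p = 0.00123) and Gabra4 lower (0.0442, at least 2.49-fold). Without the filter 1823 of all 15420 genes were called. Of 70 genes of the same synapses (auxiliary subunits, scaffolds, transporters and enzymes), 21 were tested, of which 10 were higher and 1 lower in differentiating cells. Slc17a6, the vesicular glutamate transporter VGLUT2, had a log2 fold change of 2.68 (SE 0.28), and the AMPA receptor auxiliary subunits Cacng4 (2.85, SE 0.42) and Cnih2 (3.26, SE 0.51) were higher with it. So were Olfm1 (1.98) and the postsynaptic scaffold Dlgap4 (1.57), whereas Gsg1l, another AMPA auxiliary subunit, was lower (-1.66, SE 0.38). Sums over several marker lists of other cell types were higher in differentiating cells too, without overlap between the mice of the groups. The 13 interneuron markers summed to between 1195 and 1407 CPM against 425 to 538, with 11 seen in differentiating cells and Sst and Npy at 0. The 17 Purkinje markers summed to between 832 and 1127 CPM against 333 to 705, with 16 seen and Gng13 at 0. The 5 markers of unipolar brush cells, all seen, summed to between 213 and 376 CPM against 96.4 to 147, and the 16 oligodendrocyte markers to between 391 and 512 against 237 to 287, with 12 seen and Olig1, Sox10, Gpr17 and Neu4 at 0. The 18 astrocyte markers were lower without overlap, at 248.9 to 349 CPM against 389.9 to 547, with 15 seen and Gjb6, Aldoc and Timp4 at 0. So were the 15 interneuron progenitor markers, at 283 to 371 CPM against 518 to 549, with 11 seen and Neurog1, Gsx1, Dll1 and Prdm13 at 0. Single markers did not all follow these sums, as mean CPM in differentiating against proliferating cells. Pax2 was at 16.6 against 6.01 and Gad1 at 12.4 against 6.25, but Slc32a1 at 2.62 against 5.27. Calb1 was at 32.0 against 27.1, Pcp2 at 28.2 against 25.2, Mbp at 44.8 against 41.8 and Pdgfra at 19.8 against 24.5. The part of these lists in the receptor levels was not tested.

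**Figure D4:**
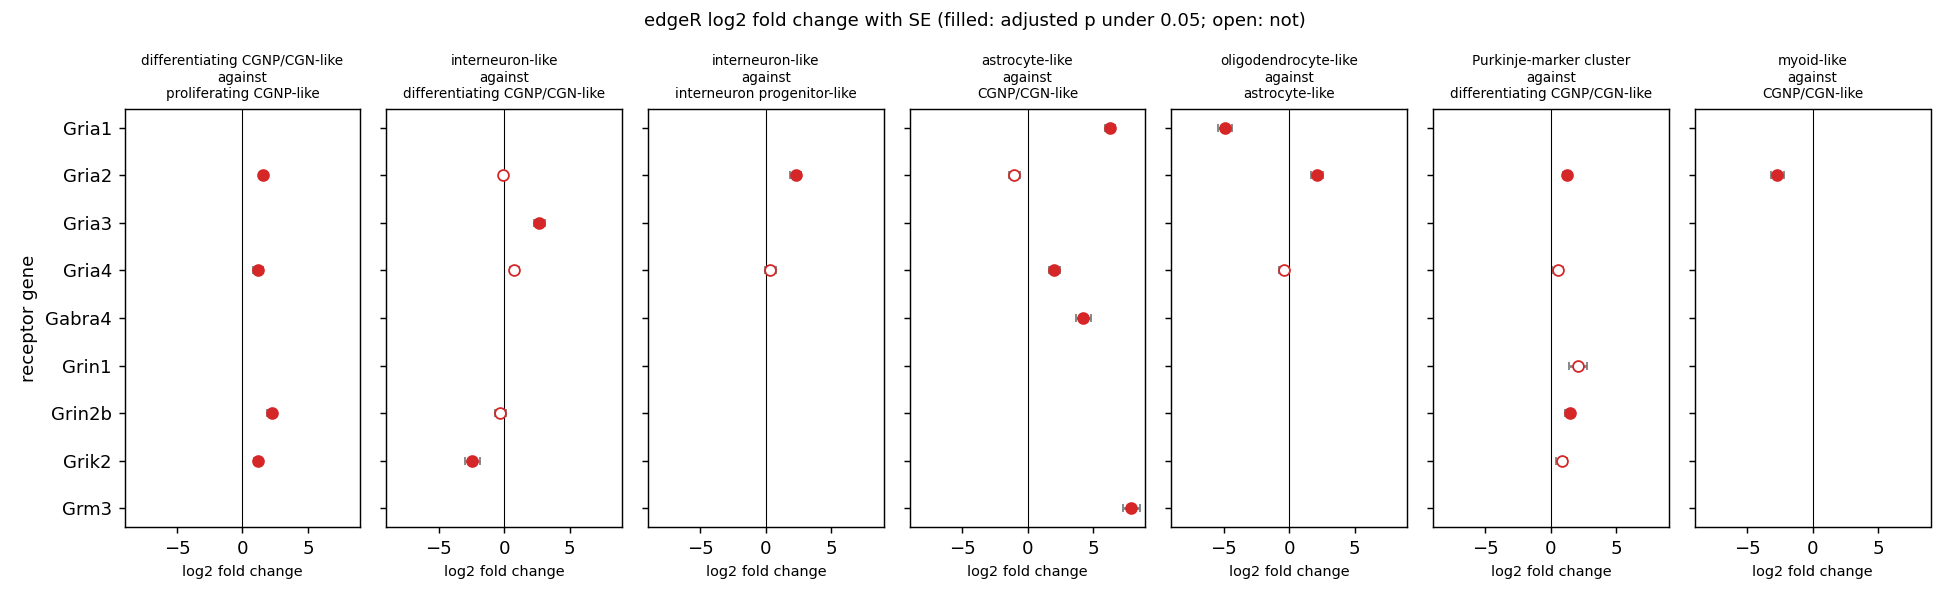
Log2 fold change (x axis) with its SE for the receptor genes described here that were tested (y axis) in 7 comparisons of cell groups, from edgeR on UMIs summed per mouse. Filled points passed an adjusted p of 0.05. Grik2 is left out where the first group held no UMI. The 4 points of the first panel are filled and above 0, and in astrocyte-like against CGNP/CGN-like cells Gria1 and Grm3 lie furthest to the right.

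The second comparison set GABAergic against glutamatergic neurons of the same cerebella. It shares the sums of differentiating cells with the first and the sixth. Interneuron-like cells held more Gria3 and less Grik2 than differentiating CGNP/CGN-like cells, and the levels of the other 4 receptor genes tested did not pass the threshold. Over all 3710 genes tested 6.47% were called, 2.43% higher and 4.04% lower, and 10.2% with mice as blocks. Gria3, the AMPA subunit GluA3, was at 199.8, 95.3 and 222 CPM in interneuron-like and 45.7, 7.85 and 26.6 in differentiating cells, a log2 fold change of 2.68 (SE 0.42, edgeR adjusted p = 4.24e-05). Grik2 was at 58.8, 23.8 and 4.44 CPM against 152, 109.9 and 79.7, a log2 fold change of -2.42 (SE 0.59, edgeR adjusted p = 0.00688), and was not called without mouse 2 (adjusted p = 0.0909) or mouse 3 (0.163), nor by DESeq2 (0.162). Neither gene overlapped between the cell groups. Gria2 was at 306, 262 and 488 CPM against 462, 400.3 and 334, which overlap (-0.09, SE 0.25), and Grin2b was at 106, 0 and 124 against 107, 94.2 and 144 (-0.28, SE 0.40). Gria4 was at 199.8, 167 and 106.5 CPM against 102, 78.5 and 68.3, without overlap, and missed the threshold (0.77, SE 0.36, edgeR adjusted p = 0.301).

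Interneuron-like cells also held subunits that were close to 0 in granule neurons but too low for the filter. Grm3, the mGlu3 receptor, which inhibits adenylyl cyclase, had 21 UMIs in interneuron-like cells, at 47.0, 47.7 and 66.6 CPM, and none in differentiating cells. That is at least 11.7-fold higher (3 UMIs over the group), and it was called with no filter on low counts (adjusted p = 2.45e-05). Without the filter 357 of all 14702 genes were called. Glra2, the alpha subunit of immature glycine receptors, had 24 UMIs against 5, at 118, 23.8 and 57.7 CPM against 15.2, 7.85 and 3.79 (adjusted p = 0.00501 with no filter). Of the 18 pathway genes tested, 1 was higher and 3 lower in interneuron-like cells. The GABA-degrading enzyme gene Abat was higher (1.49, SE 0.40), whereas Slc17a6 (-4.54, SE 0.48), Cacng4 (-2.43, SE 0.48) and the scaffold Homer2 (-2.10, SE 0.47) were lower.

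Marker lists of other cell types also had sums that did not overlap between interneuron-like and differentiating cells, given in that order. The 5 unipolar brush cell markers summed to between 35.3 and 169 CPM against 213 to 376, with 4 seen and Lmx1a at 0. The 15 interneuron progenitor markers summed to between 405 and 788 CPM against 283 to 371, with 10 seen and Ptf1a, Gsx1, Mfng and Nkx2-2 among those at 0. The 16 oligodendrocyte markers summed to between 270 and 381 CPM against 391 to 512, with 11 seen and Olig1, Sox10, Enpp6, Gpr17 and Neu4 at 0. Ependymal and vascular fibroblast markers were lower as well, at sums of at most 124 CPM. What such RNA adds to the levels of Gria3 and Grik2 was not tested.

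The third comparison set interneuron-like cells against their progenitors. Gria2 was higher in interneuron-like cells, and Gria4 was not shown to differ. Of the 2046 genes tested 17.6% were called, 7.97% higher and 9.68% lower, and 2 receptor genes were tested. Gria2 was at 23.1, 52.8 and 115 CPM in progenitor-like and 306, 262 and 488 in interneuron-like cells, with no overlap, a log2 fold change of 2.28 (SE 0.42, edgeR adjusted p = 0.000134). Gria4 was at 104, 211 and 102 CPM in progenitor-like and 199.8, 167 and 106.5 in interneuron-like cells, which overlap (0.33, SE 0.43, edgeR adjusted p = 0.691). In progenitor-like cells Gria4 was above Gria2 in mice 1 and 2 and below it in mouse 3. Among genes under the filter, Gria3 had 4 UMIs in progenitor-like and 71 in interneuron-like cells, and Glra2 had 0 and 24 (at least 5.74-fold higher), and both were called with no filter. That fit called 502 of all 13999 genes. Gria3 overlapped in mouse 2, whose 21 progenitor-like cells gave 106 CPM. Gabra4 had 14 UMIs in progenitor-like cells at 34.7, 158 and 54.3 CPM and 2 in interneuron-like cells, and its highest mean level was in astrocyte-like cells. Of 4 pathway genes tested, Cacng2, the AMPA auxiliary subunit stargazin, was higher (3.45, SE 0.55), and the glutamate transporter Slc1a3 was lower (-1.77, SE 0.43). Astrocyte markers moved with this comparison: the 18 markers summed to between 1935 and 2324 CPM in progenitor-like cells, with 11 seen and Agt, S100b, Gjb6, Hopx, Gdf10, Aldoc and Mt3 at 0, and to between 215 and 517 in interneuron-like cells, with 15 seen and Gfap, Gjb6 and Hopx at 0. Their part in the levels of Gabra4 and Slc1a3 was not tested. Further lists did not overlap, with interneuron-like cells given first. The 18 differentiating granule neuron markers summed to between 8466 and 9534 CPM against 6179 to 6294, with 18 seen. The 16 proliferating CGNP markers summed to between 1819 and 3538 CPM against 9706 to 11047, with 16 seen. The 16 oligodendrocyte markers summed to between 270 and 381 CPM against 185 to 264, with 11 seen and Olig1, Sox10, Enpp6, Gpr17 and Neu4 at 0. Myeloid markers were lower, at sums of at most 47.7 CPM. The part of these lists in the level of Gria2 was not tested either.

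The fourth comparison set astrocyte-like cells against the granule lineage, proliferating and differentiating CGNP/CGN-like cells together. Astrocyte-like cells held more Gria1, Grm3, Gabra4 and Gria4, and no UMI of Grik2. Of the 5046 genes tested 22.5% were called, 12.4% higher and 10.1% lower, against 4 higher and 1 lower of the 6 receptor genes tested. Gria1, the AMPA subunit GluA1, was at 765, 951 and 518 CPM in astrocyte-like cells and 5.26, 5.62 and 13.2 in the granule lineage, a log2 fold change of 6.31 (SE 0.40, edgeR adjusted p = 4.55e-15). Grm3 was at 311, 178 and 235 CPM in astrocyte-like cells with 40 UMIs and at 1 UMI in all granule lineage cells of the 3 mice, a log2 fold change of 7.92 (SE 0.65, edgeR adjusted p = 4.07e-12). Gria4 was at 191, 238 and 215 CPM against 64.9, 59.0 and 39.6 (2.05, SE 0.40, edgeR adjusted p = 0.000173), and was not called without mouse 3 (adjusted p = 0.0537). Gabra4, the alpha4 subunit of extrasynaptic GABAA receptors, was at 71.8, 59.4 and 205 CPM against 10.5, 2.81 and 8.26 (4.26, SE 0.55, edgeR adjusted p = 1.63e-07), with 21 of its 25 UMIs in mouse 3. Without mouse 3 Gabra4 fell under the filter and was not tested, so its call was not repeated without that mouse. The mice of the cell groups did not overlap in these 4 genes, and the share of all genes without overlap was not counted.

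Grik2 had 0 UMIs in astrocyte-like cells and 112 in the granule lineage, at 84.2, 64.7 and 67.7 CPM, which is at least 3.92-fold lower (edgeR adjusted p = 0.00236). Without mouse 3 that call was lost (adjusted p = 0.0816). Gria2 was at 95.7, 0 and 137 CPM in astrocyte-like cells and 265, 231 and 206 in the granule lineage, without overlap, and missed the threshold (-1.01, SE 0.42, edgeR adjusted p = 0.0799). It passed with no filter on low counts (-1.39, adjusted p = 0.0206), with no upper limit on molecules (0.0272) and with at least 1000 molecules per cell (0.0272). With no filter, 1709 of all 15655 genes were called and 33 receptor genes were tested, of which 5 further genes were higher in astrocyte-like cells. Among these were Gabrb1, which had 16 UMIs against 0 (at least 50.8-fold), Gabrg1 with 12 against 3, Grin3a with 10 (all in mouse 3) against 8 and Grm5 with 5 against 0 (at least 15.9-fold). Grin2b was lower, with 2 UMIs against 95. Gabrb1 shares the head-to-head start with Gabra4 and had its UMIs in mice 1 and 3, at 47.8 and 137 CPM.

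Markers of other cell types were also seen in astrocyte-like cells. The 18 markers of differentiating granule neurons summed to between 1189 and 2751 CPM in astrocyte-like and 17016 to 18800 in differentiating cells, and 16 of them were seen, with Barhl2 and Mab21l2 at 0. Of 13 interneuron markers 6 were seen, with Pax2, Gad1, Gad2 and Slc32a1 at 0 and a sum between 0 and 176 CPM against 425 to 1407 in the granule lineage groups. Others were higher than in either granule lineage group: the 15 interneuron progenitor markers summed to between 1545 and 2816 CPM against 283 to 549, with 12 seen and Neurog1, Gsx1 and Dll3 at 0. The 16 oligodendrocyte markers summed to between 1076 and 1902 CPM against 237 to 512, with 11 seen and Sox10, Cspg4, Mag, Gpr17 and Neu4 at 0. The 10 vascular fibroblast markers summed to between 407 and 1189 CPM against 273 to 350, with 7 seen and Dcn, Ogn and Slc6a20a at 0. The part of such RNA in the receptor levels was not tested. The 7 ependymal markers summed to 2679, 6359 and 48.9 CPM in mice 1, 2 and 3. Gria1, at 765, 951 and 518 CPM, had the same order over the mice as this sum, and Grm3, with its levels given above, had another order. The part of ependymal RNA in the levels of Gria1 and Grm3 was not tested. Of 30 pathway genes tested, 14 were higher and 4 lower. Slc1a3, the glial glutamate transporter GLAST, was at 4093 ± 1372 CPM against 88.7 ± 16.4 (SD, n = 3), a log2 fold change of 5.57 (SE 0.35). The GABA transporter Slc6a11 (4.86, SE 0.65), the glycine transporter Slc6a9 (4.83, SE 0.68), the AMPA auxiliary subunits Cacng5 (4.36, SE 0.57) and Cacng4 (2.91, SE 0.41) and the GABAB receptor gene Gabbr1 (2.70, SE 0.42) were higher.

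The fifth comparison set the 2 glial types against each other, with the same astrocyte-like sums. Oligodendrocyte-like cells held more Gria2 and less Gria1 than astrocyte-like cells. Of the 1033 genes tested 20% were called, 7.36% higher and 12.7% lower, and 3 receptor genes were tested. Gria2 was at 566, 509 and 638 CPM against 95.7, 0 and 137, a log2 fold change of 2.14 (SE 0.44, edgeR adjusted p = 0.00168), which was not called without mouse 1 (adjusted p = 0.0688). Gria1 was at 36.5, 0 and 28.3 CPM against 765, 951 and 518, a log2 fold change of -4.92 (SE 0.54, edgeR adjusted p = 6.40e-06). Gria4 was at 219, 204 and 170.0 CPM against 191, 238 and 215 (-0.39, SE 0.39, edgeR adjusted p = 0.5996), so these values overlap. Of 3 pathway genes tested only Slc1a3 was called, and it was lower (-5.64, SE 0.47). Markers of other cell types moved with this comparison as well, without overlap. The 18 markers of differentiating granule neurons, all seen in oligodendrocyte-like cells, summed there to between 2977 and 3224 CPM against 1189 to 2751, and the 7 ependymal markers to between 0 and 18.3 against 48.9 to 6359, with 1 seen and Foxj1, Ccdc153, Tmem212, Dynlrb2, Mia and Ak7 at 0. Other lists without overlap follow, with oligodendrocyte-like cells given first. The 13 interneuron markers summed to between 204 and 298 CPM against 0 to 176, with 10 seen and Slc32a1, Npy and Pnoc at 0. The 15 interneuron progenitor markers summed to between 1219 and 1392 CPM against 1545 to 2816, with 9 seen and Ptf1a, Kirrel2, Neurog1, Neurog2, Gsx1 and Prdm13 at 0. The 16 proliferating CGNP markers summed to between 2172 and 3086 CPM against 933 to 1848, with 14 seen and Gli1 and Gli2 at 0. The 10 vascular fibroblast markers summed to between 67.9 and 146 CPM against 407 to 1189, with 4 seen and Dcn, Lum, Col1a1, Ogn, Islr and Slc6a20a at 0. Their part in the levels of Gria2 and Gria1 was not tested.

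Among genes below the filter on low counts, the glial types also differed in metabotropic and GABAA genes. Grm3 had 0 UMIs in oligodendrocyte-like and 40 in astrocyte-like cells (at least 12.8-fold lower). Gabra3 had 18 against 1, at 146, 136 and 85.0 CPM, and held 18 of 24 alpha UMIs (75.0%) of oligodendrocyte-like cells, whereas Gabra4 held 25 of 27 (92.6%) of astrocyte-like cells. Gria3 had 34 against 5. With no filter all of these were called, with Gabra4 lower, in a fit that called 436 of all 13568 genes. Grin3a, the NMDA subunit GluN3A, which lowers calcium entry, had its highest level in oligodendrocyte-like cells with 24 UMIs, 10, 1 and 13 in mice 1, 2 and 3. Splitting the 119 cells by the genes they held UMIs of, as a description, 31 held precursor genes (Pdgfra or Cspg4) without myelin genes, 51 held myelin genes (such as Mbp or Cnp) without precursor genes, 11 held both and 26 neither. Gria2 was at 372 CPM in the precursor set (exact Poisson 95% interval 208 to 613) and 652 in the myelin set (472 to 878), and Grin3a at 223 (102 to 423) and 75.8 (24.6 to 177). For both genes the intervals overlap, which does not show equal levels. Grm5, the mGlu5 receptor, was at 124 (40.2 to 289) and 15.2 (0.38 to 84.5).

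The sixth comparison set the Purkinje-marker cluster against differentiating CGNP/CGN-like cells. Gria2 and Grin2b were higher in the cluster. Of the 3730 genes tested 6.62% were called, 3.43% higher and 3.19% lower, against 2 of the 6 receptor genes tested. Gria2 was at 1139, 572 and 910.0 CPM against 462, 400.3 and 334, a log2 fold change of 1.21 (SE 0.28, edgeR adjusted p = 0.00359), and Grin2b at 185, 572 and 345 against 107, 94.2 and 144 (1.44, SE 0.35, edgeR adjusted p = 0.00492). Both calls were lost without mouse 1 (adjusted p = 0.0977 and 0.0503) or mouse 3 (0.0816 and 0.191), and DESeq2 did not call Grin2b (0.116). Markers of unipolar brush cells, another glutamatergic neuron, moved with this comparison: all 5 were seen in both groups, and they summed to 768, 477 and 819 CPM in the cluster against 213, 314 and 376 in differentiating cells. Lower in the cluster, without overlap, were these lists. The 13 interneuron markers summed to between 821 and 1049 CPM against 1195 to 1407, with 12 seen and Npy at 0. The 16 proliferating CGNP markers summed to between 477 and 532 CPM against 1162 to 1935, with 14 seen and Gli1 and Ccnb1 at 0. The 10 vascular fibroblast markers summed to between 182 and 212 CPM against 273 to 350, with 7 seen and Ogn, Islr and Slc6a20a at 0. The part of all these lists in the receptor levels was not tested. Mouse 2 gave 9 of the cells, and without it 5 of 11 receptor genes tested were called, Gria2, Grin2b, Gria1 and Grm5 among them. Of all 4820 genes tested without mouse 2, 221 were called. With no upper limit on molecules, the cluster held 165 cells with 10 Purkinje markers against 3 of differentiating granule neurons. Of 7 receptor genes tested at that setting 4 were called, Gria2 and Grin2b among them, against 278 of all 3699 genes. Grin1, the obligatory NMDA subunit, was at 79.5, 95.3 and 67.1 CPM against 0, 23.5 and 26.6 (2.04, SE 0.69, edgeR adjusted p = 0.0623), and Grik2 and Gria4 had adjusted p of 0.297 and 0.618. Among genes under the filter, some had UMIs here and none in differentiating cells. Grm5 had 18 against 0, Glra1, the adult glycine receptor alpha subunit, 10 against 0, and Gabra4 12 against 0. Of 22 pathway genes tested 2 were higher and none lower. Neto2, a kainate receptor auxiliary subunit, had a log2 fold change of 2.30 (SE 0.60), and Cbln1, the ligand of the delta receptors, 2.03 (SE 0.53).

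Within the cluster Grik2 was at 397, 191 and 129 CPM in mice 1, 2 and 3, and so was lowest in mouse 3. In its 36 cells with a UMI of Calb1, Pcp2, Car8 or Ppp1r17, of which 34 came from mouse 3, Grik2 was at 71.6 CPM (exact Poisson 95% interval 26.3 to 156), and in its other 120 cells at 219 (155 to 301). These intervals meet only between 155 and 156 CPM, which does not show equal levels. Gria2 was at 907 (714 to 1135) and 941 (802 to 1097). The first set was deeper, with a median of 2206.5 against 1308.5 UMIs per cell, and no test was made. With all but 2 cells of the first set from mouse 3, the split and the mouse cannot be told apart.

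The seventh comparison set the myoid-like cells, which carry muscle genes, against the same granule lineage sums. They held less Gria2 and no UMI of Grik2. Of the 4533 genes tested 20.1% were called, 7.94% higher and 12.1% lower, and both receptor genes tested were lower. Gria2 was at 25.0, 44.3 and 36.5 CPM against 265, 231 and 206, a log2 fold change of -2.69 (SE 0.50, edgeR adjusted p = 0.000132). Grik2 had 0 UMIs against 112, at least 3.53-fold lower (edgeR adjusted p = 0.00369), and was not called without mouse 3 (adjusted p = 0.104). The Gria2 levels of myoid-like cells overlapped those of non-neural cells, at 40.6 ± 7.80 CPM (SD, n = 3). Of 15 pathway genes tested 1 was higher and 3 lower. Slc12a2, the chloride importer NKCC1, was higher (1.93, SE 0.48), Homer2 was lower (-1.66, SE 0.60), and Slc17a6 and Cacng2 had no UMI in myoid-like cells. Marker lists of other cell types stood apart from both granule lineage groups. The 10 vascular fibroblast markers summed to between 4262 and 6706 CPM against 273 to 350, with 4 seen and Dcn, Lum, Col1a1, Ogn, Islr and Slc6a20a at 0. The 10 endothelial markers summed to between 1011 and 1501 CPM against 406 to 554, with 3 seen and Cldn5, Pecam1, Flt1, Kdr, Cdh5, Ly6c1 and Slco1a4 at 0. The 15 interneuron progenitor markers summed to between 901 and 1239 CPM against 283 to 549, with 6 seen and Ptf1a, Kirrel2, Neurog1, Neurog2, Gsx1, Dll3, Prdm13 and Nkx2-2 among those at 0. The 18 differentiating granule neuron markers summed to between 1328 and 1927 CPM against 5621 to 18800, with 15 seen and Barhl2, Nhlh1 and Adcyap1 at 0. The 16 proliferating CGNP markers summed to between 600 and 1062 CPM against 1162 to 8199, with 15 seen and Mycn at 0. Whether they bear on the levels of Gria2 and Grik2 was not tested.

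The levels of the other classes are given here as a description, and the GABAA subunits also differed in which cell group led. Among the alpha subunits, Gabra2 had its highest mean level in the Purkinje-marker cluster, at 79.5, 0 and 129 CPM in mice 1, 2 and 3. In differentiating cells it was at 30.5, 7.85 and 45.5 CPM, within that range. Gabra3 was highest in oligodendrocyte-like cells and Gabra4 in astrocyte-like cells, as given above. Gabrb2 had 3 UMIs in all cells. Gabrg1 was at 95.7, 0 and 78.2 CPM in astrocyte-like and 91.3, 0 and 99.2 in oligodendrocyte-like cells, and was seen in 4 of the 9 groups. Each of these glial values rests on 12 UMIs, and no differentiating or interneuron-like cell held one.

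Of the glycine receptor genes, Glrb, the beta subunit that anchors the receptor, had 86 UMIs and was seen in all 9 groups at mean levels between 4.06 and 76.7 CPM, including 50.4 in non-neural cells. Glra1 had all of its 10 UMIs in the Purkinje-marker cluster, and Glra2 had 44, of which 24 were in interneuron-like cells and 14 in mouse 3 of the Purkinje-marker cluster. The beta subunit was thus spread over cell groups and the alpha subunits were in few.

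Grin2b held 37 of 40 GluN2 UMIs (92.5%) in interneuron-like cells, 85 of 88 (96.6%) in the Purkinje-marker cluster and 24 of 29 (82.8%) in proliferating cells. Grin2d had 15 UMIs in all cells and Grin2c 2. Grin1 was at 23.5, 47.7 and 35.5 CPM in interneuron-like cells, below the Purkinje-marker cluster without overlap. Grin3a had 56 UMIs, and was at 183, 33.9 and 184 CPM in oligodendrocyte-like cells and at 0 UMIs in interneuron-like cells, which allows up to 8.51 CPM. Among the kainate genes, Grik2 held 47 of 80 UMIs (58.8%) in proliferating and 65 of 96 (67.7%) in differentiating cells, 44 of 77 (57.1%) in the Purkinje-marker cluster and 7 of 31 (22.6%) in interneuron-like cells, where Grik3 and Grik5 had 10 each. The shares in interneuron-like cells differed between mice, at 45.5%, 25.0% and 6.25% for Grik2, 18.2%, 0% and 50.0% for Grik3 and 18.2%, 50.0% and 37.5% for Grik5 in mice 1, 2 and 3. These shares rest on only 11, 4 and 16 kainate UMIs. Grik3 had 61 UMIs in all, Grik5, a high-affinity subunit, 67 in all 9 groups, Grik4 21 and Grik1 6. Grik2 thus held most kainate UMIs in the granule lineage, while the few UMIs of interneuron-like cells do not settle which subunit led there.

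Of the metabotropic genes, Grm5 had 36 UMIs, with 18.3, 0 and 142 in oligodendrocyte-like cells and 47.8, 0 and 29.3 in astrocyte-like cells. Grm3 had 76. Grm7 had 12 UMIs, Grm4 5 and Grm2 4. Of the delta genes, Grid1 had 12.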

How the data were processed

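Drop-seq libraries of 3 EedcKO cerebella at postnatal day 7 (1 mouse each) were analysed from the authors' gene-by-barcode tables. As deposited, the values are raw UMI counts, whole numbers with no normalization. The labels name STAR and mm10, and the annotation and versions are not given in the sources used here. The receptor genes, pathway genes, markers, tests and rule for naming genes were chosen with earlier results of these data known. The named genes were those of the rule with at least 20 UMIs, those past an adjusted p of 0.05, the most abundant of each class, and up to 6 pathway genes per comparison. Genes named from the fit without the filter on low counts were chosen after their values were seen. Some receptor genes and markers are not reported here.

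As in the study's methods, barcodes were kept from 500 molecules and 200 genes upward, up to a limit set 4 SD over the median, with mitochondrial transcripts at or under 10%. Clustering used Seurat 5.3.0 in R 4.3.3 (sctransform 0.4.2, 3000 variable genes after leaving out the receptor and pathway genes, 15 components, Louvain resolution 0.8), so clusters differ from the study's. Scrublet (scanpy 1.11.5) marked 6 cells as doublets, which were kept. UMIs were summed per mouse and cell group and tested with edgeR 4.0.16 (TMM, filterByExpr, quasi-likelihood test, two-sided, Benjamini-Hochberg over all genes tested), and the standard error is the log2 fold change over the square root of F. DESeq2 1.42.0 was an alternative. The code was tested on simulated data. All sums of 1 mouse share an animal, which pairs them. Their deviations from group means correlated across genes at 0.03 to 0.27, and a fit with mice as blocks was an alternative. Mouse pairs differed beyond sampling noise (chi-square per degree of freedom 2.75 to 5.27).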

Additional observations from a re-analysis of the deposited data

How the results depend on the processing

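Over the 20 called receptor gene results, 204 of 233 values under the alternatives kept their direction and call, 29 kept the direction and lost the call, and none reversed. Mice as replicate blocks changed no call of a receptor gene, with 6 higher and 0 lower in the first comparison. Changes of sign were seen only where nothing was called: in interneuron-like against differentiating CGNP/CGN-like cells, Gria2 had a log2 fold change between -0.62 and 0.14 without a mouse (0.02 without mouse 2), 0.22 at resolution 1.2 and 0.14 with no upper limit, and Grin2b 0.13 at resolution 1.2, and against progenitor-like cells Gria4 had -0.17 at resolution 1.2.

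Counts of receptor genes higher moved most as follows, with the cause not tested unless the setting changes which genes or cells are used. Differentiating against proliferating cells gave 2 with DESeq2, 2 at 1000 molecules, and 3 without any 1 mouse, with 1 lower without the filter. Interneuron-like against differentiating cells gave 2 with DESeq2, 3 with no filter, 3 at resolution 1.2, 2 with no upper limit, 0 at 1000 molecules and 1 to 2 without a mouse; lower were 0 with DESeq2, 0 at 1000 molecules and 0 to 1 without a mouse. Against progenitor-like cells these were 2 with DESeq2, 3 with no filter and 1 to 2 without a mouse, and at 1000 molecules no receptor gene was tested. At 1000 molecules only 1 receptor gene each was tested for interneuron-like against differentiating cells and for the oligodendrocyte-like, Purkinje-marker and myoid-like comparisons. Astrocyte-like cells gave 8 with DESeq2, 9 with no filter and 2 to 6 without a mouse, and lower 3 with no filter, 2 with no upper limit, 0 at resolution 0.4 and 0 to 1 without a mouse. Oligodendrocyte-like against astrocyte-like cells gave 3 with no filter, 0 at 1000 molecules and 0 to 2 without a mouse, and lower 2 with DESeq2, 3 with no filter and 1 to 2 without a mouse. The Purkinje-marker cluster gave 1 with DESeq2, 6 with no filter, 4 with no upper limit, 1 at 1000 molecules and 0 to 5 without a mouse. Myoid-like cells gave 1 lower at resolution 0.4, 1 at 1000 molecules and 1 to 2 without a mouse. Over all genes, the calls of the 7 comparisons in the order of the text ranged from 851 to 2001, 104 to 379, 77 to 502, 576 to 1709, 108 to 436, 40 to 280 and 394 to 1199 under the alternatives, beside 1449, 240, 361, 1136, 207, 247 and 910. Smaller moves of the count of higher genes were 5 in the first comparison with all cell groups in 1 fit, at resolution 1.2 and without doublets, 3 for astrocyte-like cells at 1000 molecules, and 3 for the Purkinje-marker cluster at resolution 1.2 and without doublets. The highest counts of higher genes without a mouse came without mouse 2, the shallowest library, for the interneuron-like, astrocyte-like, oligodendrocyte-like and Purkinje-marker comparisons. At resolution 0.4 no cluster was named differentiating, so the comparisons with those cells alone have no value there, and the granule lineage behind the astrocyte-like and myoid-like values at that resolution came from clusters named proliferating alone, of which 1 had Chodl, Barhl1 and Mfap4, leading genes of a differentiating cluster, among its own. Thinning each cell to 500 UMIs lowered the share of cells with a UMI to 16.6% for Gria2 in differentiating cells, 14.4% in interneuron-like and 25.8% in oligodendrocyte-like cells, and to 20.3% for Gria1 in astrocyte-like cells. The pooled AMPA shares of Gria2 in differentiating and oligodendrocyte-like cells, Gria3 in interneuron-like and Gria1 in astrocyte-like cells moved by less than the SD over mice in every alternative run.

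Depth limits the rest: 11 of the 35 genes had under 20 UMIs, few passed the filter in small groups, and those genes cannot be said to be absent.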

Other observations

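Astrocyte-like cells with a UMI of the AMPA subunit Gria1 numbered 39 of 109. Of these, 5 also held a UMI of Gria2, 13 of Gria4 and 17 of Grm3, whereas 12, 24 and 28 cells of the whole group held a UMI of those genes. In oligodendrocyte-like cells, 16 of the 55 cells with a Gria2 UMI held a Gria3 UMI, and 25 of all 119 cells did. In interneuron-like cells, 20 of the 102 cells with a Gria2 UMI held a Gria3 UMI, and 48 of all 348 cells did. Cells with a UMI of one gene tend to be deeper, so these counts were not tested.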
